A study of Manihot esculenta with 4 samples.

Results

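In cassava, Manihot esculenta, 157 genes had more leaf RNA in the cultivar KU50 than in the cultivar Xinxuan048, both in control plants and under drought, while their drought and control values within a cultivar stayed within a set limit of each other. They were chosen from 18602 eligible genes, out of 27146 genes in the deposited files. Leaf RNA was sequenced on an Illumina HiSeq instrument, with 1 control and 1 drought library for each cultivar. The labels gave no genetic background for either cultivar beyond its name, and no age, drought length or number of plants per library. With 1 library per group, no value has a replicate and no difference has a test. A difference between cultivars therefore cannot be told apart from a difference between the libraries or plants that stood for them.

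Values were FPKM, a fragment measure corrected for how long a transcript is and how deeply its library was sequenced, and every ratio is a log2 of FPKM + 1. A gene missing from a library's file was taken as 0 FPKM and is called unlisted. A gene was eligible if its tag placed it on a chromosome, its locus spanned at least 500 bases, and its mean over the 4 libraries was at least 1 and below 300 FPKM. A gene was KU50-high if its log2 ratio of KU50 over Xinxuan048 was at least 1 in control and also in drought, with a log2 drought change below 1 in size within each cultivar. The measured values thus chose the members, so their cultivar ratios and the limits on their drought changes are descriptions.

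Cassava is a tropical root crop that is propagated by stem cuttings, so each cultivar is a clone and carries its own fixed set of alleles. A gene's RNA can differ between such clones because its regulatory DNA differs, because a copy is missing, duplicated or broken, or because its transcripts match the reference sequence less well in one clone. Where such a difference is present whether or not the plant is stressed, it is called constitutive, in contrast to a response to drought. Which of these causes applies to any gene below was not tested. The files give each gene a MANES locus tag, and none of the tags (0 of 27146) matched a table of 34312 RefSeq cassava genes, so gene names, functions and sequences are not given, and markers of leaf cell types were not examined. For bulk leaf RNA, fewer cells of a type and less RNA per cell cannot be told apart.

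The FPKM totals of the libraries lay between 611226 and 636034, and 24405 to 25336 genes were listed in each. The number of fragments behind a value is unknown. Positions are those of the files, and their build is not named in the sources used here. Over all eligible genes the median log2 ratio of KU50 over Xinxuan048 was 0.13 in control and 0.08 in drought. The median log2 drought change was 0.31 in KU50 and 0.37 in Xinxuan048. Scaling the libraries on the median of gene ratios brought these medians to between -0.03 and 0, so ratios near the limits lean on the scale used.

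The members made up 0.844% of the eligible genes. The mirror rule, with Xinxuan048 higher by the same limits, took 76 genes, or 0.409%. KU50-high genes were therefore 67.4% of the genes taken by either rule, and this share depended on the scale. It was 66.4% with totals scaled to a common value. With median-ratio scaling the numbers were 118 and 109, a share of 52.0%, and with upper-quartile scaling 122 and 104, a share of 54.0%. Of the 157 members, 98 also met the rule with median-ratio scaling and 105 with upper-quartile scaling.

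In control alone, 1199 eligible genes (6.45%) reached the limit with KU50 higher, and 704 (3.78%) did so in drought. Both ratios were met by 260 genes (1.4%). Of these, 103 failed only the limit on drought change and are not members. Among the 103, the log2 drought change in KU50 was at least 1 for 55 genes and at most -1 for 26. In Xinxuan048 these counts were 47 and 8.

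In KU50 the members were mostly genes of low to middle abundance. Their median was 7.17 FPKM in KU50 control, with values from 1.32 to 181, and 8.01 FPKM in KU50 drought, with values from 1.22 to 159. In Xinxuan048 the median was 0.788 FPKM in control, with values from 0 to 45.0, and 1.32 FPKM in drought, with values from 0 to 77.4. Every member was listed in both KU50 libraries, while 13 were unlisted in Xinxuan048 control and 15 in Xinxuan048 drought. Their summed share of the FPKM total was 0.368% for control and 0.374% for drought leaves of KU50, against 0.0951% and 0.123% for Xinxuan048.

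**Figure D1:**
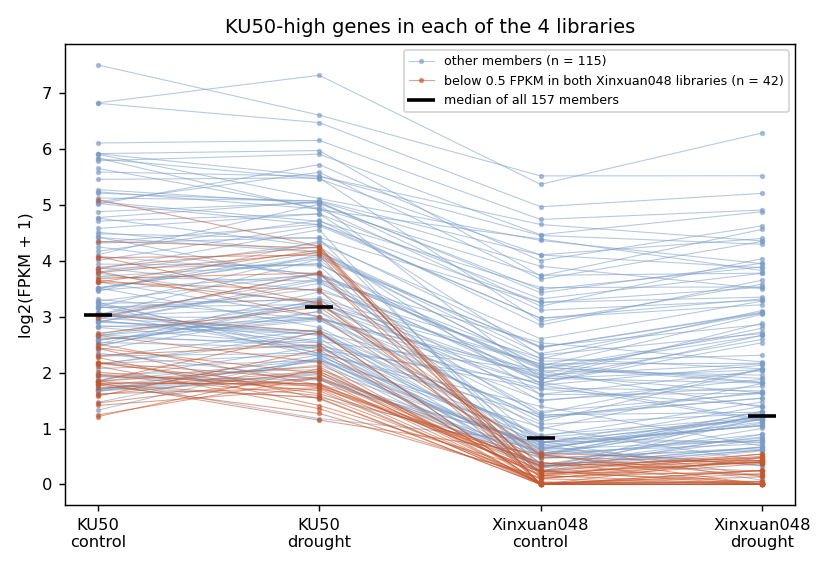
Values of the 157 KU50-high genes in the 4 libraries, as log2(FPKM + 1); each line joins the values of 1 gene, and black bars are medians. The 42 genes below 0.5 FPKM in both Xinxuan048 libraries (orange) reach values up to 33.2 FPKM in KU50 control, and the other 115 genes (blue) have at least 0.5 FPKM in at least 1 Xinxuan048 library.

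Members were less frequent at higher abundance. They were 1.74% of the eligible genes with a mean of 1 to 3 FPKM (54 of 3096), and 1.08% of those from 3 to 10 FPKM (65 of 6020). From 10 to 30 FPKM they were 0.436% (27 of 6196), and from 30 to 100 FPKM 0.412% (11 of 2671). Of the 619 eligible genes from 100 to 300 FPKM none was a member. The added 1 FPKM shrinks the ratios of low genes, while counting error is larger at low values; its part in these shares was not tested.

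The members ran from genes that were near silent in Xinxuan048 to genes that were merely lower there. In 42 members (26.8%) the value was below 0.5 FPKM in both Xinxuan048 libraries. Over all eligible genes that held for 95 (0.511%). The comparison is a description, since low Xinxuan048 values helped to choose the members. Because a mean of at least 1 FPKM was required, genes this low in Xinxuan048 were also eligible only through their KU50 values. In these 42 the KU50 medians were 3.55 FPKM in control and 3.06 in drought, against 0.0853 and 0.119 in Xinxuan048. With 1 FPKM added, values this low cannot reach the drought limit, so these 42 met it in Xinxuan048 whatever their change. In 73 members (46.5%) both Xinxuan048 values were at least 1 FPKM. There the KU50 medians were 13.7 FPKM in control and 16.4 in drought, against 3.76 and 5.95 in Xinxuan048. The last 42 members lay between these groups. Among the 76 Xinxuan048-high genes, 16 (21.1%) were below 0.5 FPKM in both KU50 libraries.

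Members unlisted in both Xinxuan048 libraries numbered 9, and another 10 were unlisted in 1 of the 2. In KU50 the 9 ranged from 2.47 to 19.4 FPKM in control and from 1.92 to 18.1 in drought. Over all eligible genes 16 were unlisted in both Xinxuan048 libraries (0.086%). With a mean of at least 1 FPKM required, such genes were eligible only through their KU50 values, so this share is a description. Of the 9 genes, MANES_01G247900 had the highest value in KU50 control. It lies on chromosome 1 (32534048 to 32534697) and had 19.4 FPKM in control leaves of KU50 and 17.8 in its drought leaves. Its 2 KU50 values were close to each other, and nothing was listed for it in either Xinxuan048 library.

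The largest mean ratio belonged to MANES_15G078900, on chromosome 15 (5790884 to 5793819). It had 33.2 FPKM in control leaves of KU50 and 18.2 in its drought leaves, against 0.117 in Xinxuan048 control and unlisted in Xinxuan048 drought. Both KU50 values stood far above both Xinxuan048 values, and the KU50 value was lower under drought (log2 change -0.83). Its control ratio was 4.94 on the log2 scale. Across the members, control ratios of at least 2 were found at 48 genes and drought ratios of at least 2 at 31. Over all eligible genes the counts were 269 (1.45%) and 158 (0.849%). The rule itself asked for ratios of at least 1, so this comparison is a description. In both conditions at once, 28 members reached 2.

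At the limit the members passed without a gap into the other genes. The smaller of the 2 ratios lay between 1 and 1.1 in 48 members, and between 0.9 and 1 in 48 genes that met the rest of the rule. MANES_02G175400 had 6.50 and 11.1 FPKM in KU50 against 2.75 and 5.04 in Xinxuan048, control before drought, with log2 ratios of 1.0004 and 1.006. MANES_06G155900 had 2.17 and 3.65 FPKM in KU50 against 0.546 and 1.32 in Xinxuan048, with ratios of 1.034 and 1.0023. These were the smallest mean ratios inside the limit. Just outside it, MANES_17G121500 had 1.998 and 1.62 FPKM in KU50 against 0.279 and 0.319 in Xinxuan048, with ratios of 1.23 and 0.99. MANES_01G074900 had 19.1 and 33.1 FPKM in KU50 against 9.14 and 15.9 in Xinxuan048, with ratios of 0.98 and 1.01.

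The most abundant members in KU50 differed by degree and stayed high in Xinxuan048. MANES_10G016600, on chromosome 10 (1312629 to 1314244), had 181 FPKM in control leaves of KU50 and 96.8 in its drought leaves, against 45.0 and 45.1 in Xinxuan048. Its Xinxuan048 values were almost equal, while its KU50 log2 change was -0.90, and the ratio between the cultivars went from 1.99 in control to 1.09 in drought. MANES_03G123800, on chromosome 3 (22110957 to 22112072), had 113 and 159 FPKM in KU50, against 40.4 and 77.4 in Xinxuan048, control before drought. Its log2 drought changes were 0.49 in KU50 and 0.92 in Xinxuan048. The lower KU50 value of each gene lay above its higher Xinxuan048 value.

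**Figure D2:**
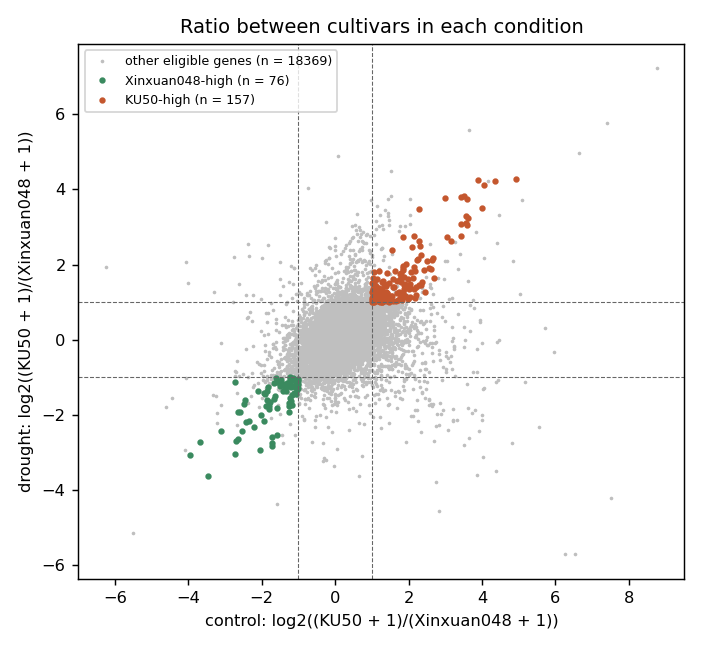
Log2 ratio of KU50 over Xinxuan048 in control (x axis) and in drought (y axis) for each eligible gene; dashed lines mark ratios of 1 and -1. The 157 KU50-high genes (orange) fill the upper right corner, up to ratios of 4.94 in control and 4.27 in drought, and the 76 Xinxuan048-high genes (green) the lower left; grey genes in those corners fail the drought limit.

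The ratio between the cultivars was somewhat smaller in drought than in control. The median over the members was 1.63 in control and 1.39 in drought, and 101 of 157 members (64.3%) had the smaller ratio in drought. Among the 14541 eligible genes within the same drought limits (78.2% of all eligible), the ratio was lower in drought in 56.3%. The change in a member's ratio had a median of -0.15 and lay within 0.5 of zero for 115 of 157 genes (73.2%), beside 80.9% of the eligible genes within the limits. In the Xinxuan048-high genes the gap between the cultivars was also smaller in drought for 45 of 76 (59.2%). Their change lay within 0.5 of zero for 55 (72.4%), so neither trait was particular to the KU50-high genes. The control and drought ratios use 4 different libraries, but each drought change shares its libraries with them.

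The largest increase of the ratio from control to drought belonged to MANES_18G122800, on chromosome 18 (12373159 to 12375233). It had 6.79 FPKM in control leaves of KU50 and 12.9 in its drought leaves, against 0.588 and 0.259 in Xinxuan048, and its ratio went from 2.29 to 3.47. MANES_06G072900, on chromosome 6, came next, with 2.60 and 5.65 FPKM in KU50 and no listing in either Xinxuan048 library. The ratio shrank most at MANES_12G131300, on chromosome 12 (28653939 to 28657046). It had 4.41 and 1.90 FPKM in KU50, and was unlisted in Xinxuan048 control and at 0.192 FPKM in Xinxuan048 drought. At MANES_08G166600, on chromosome 8 (32749718 to 32751004), the KU50 values were 21.9 and 17.0 FPKM and the Xinxuan048 values 4.06 and 7.36, control before drought. Its ratio went from 2.17 to 1.102, with KU50 lower and Xinxuan048 higher under drought.

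Within the drought limits, the members in KU50 leaned less toward higher values under drought than the eligible genes within the same limits did. On the FPKM as deposited the median log2 change was 0.06 in KU50 and 0.24 in Xinxuan048, beside 0.26 and 0.32 for those genes. On that scale the Xinxuan048-high genes also had low medians, 0.06 in KU50 and 0.15 in Xinxuan048, so there this was not particular to the KU50-high genes. With median-ratio scaling the members' medians were -0.13 in KU50 and 0.10 in Xinxuan048, beside 0.018 and 0.00053 for the eligible genes within the limits. With upper-quartile scaling they were -0.10 and 0.15, beside 0.0729 and 0.0739. In KU50 the members' median thus lay below that of the other set on each scale, while its sign depended on the scale. In Xinxuan048 it lay below on the deposited FPKM and above with these 2 scalings. The deposited value was higher under drought in 84 members in KU50 (53.5%) and in 108 in Xinxuan048 (68.8%), beside 71.8% and 76.7% of the eligible genes within the limits.

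By direction in both cultivars, 72 members (45.9%) were higher under drought in both and 33 (21.0%) lower in both. For all eligible genes within the limits these shares were 62.7% and 14.1%, and for the Xinxuan048-high genes 47.4% and 26.3%. Another 36 members (22.9%) were lower in KU50 and higher in Xinxuan048, beside 14.0% of the eligible genes within the limits and 10.5% of the Xinxuan048-high genes. The other way went 7 members (4.46%), beside 9.09% and 9.21%. Across the 157 members the log2 changes in the 2 cultivars, which share no library, had a Pearson correlation of 0.594 and a Spearman correlation of 0.584. Across the 73 members with at least 1 FPKM in both Xinxuan048 libraries the values were 0.733 and 0.732. For the 13491 genes within the limits with at least 1 FPKM in every library they were 0.550 and 0.535. The rule asks for a cultivar ratio of at least 1 in both conditions, which limits how far a member's 2 changes can differ. The members' correlations are thus partly set by the rule. Across all 14541 genes within the limits they were 0.526 and 0.514. Genes are not replicates, so these are descriptions of 4 libraries.

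**Figure D3:**
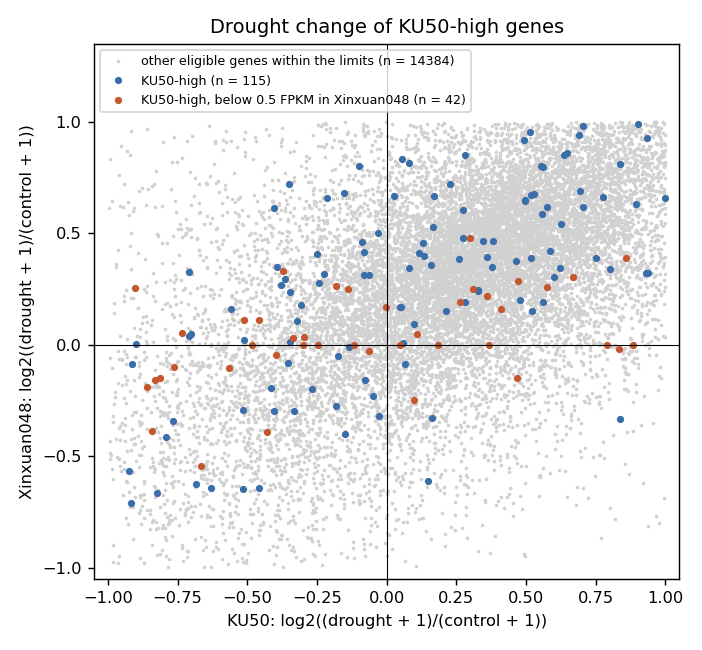
Log2 drought change in KU50 (x axis) and Xinxuan048 (y axis) for the KU50-high genes and, in grey, the other eligible genes within the drought limits. The grey cloud is centred above 0 on both axes on the deposited FPKM, while 73 of the 157 members lie left of 0 in KU50. Members near silent in Xinxuan048 (orange) have a median of 0 on the y axis. With 1 FPKM added, values below 0.5 FPKM can give only small changes on that axis, so this median does not show steady RNA.

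Some members came close to the drought limit in a way that both cultivars shared. MANES_08G133500, on chromosome 8 (30007740 to 30009706), had 16.3 and 31.4 FPKM in KU50 against 2.72 and 6.39 in Xinxuan048, control before drought. Its log2 changes were 0.90 and 0.99, while its cultivar ratio hardly moved, from 2.22 to 2.13. MANES_02G028400, on chromosome 2 (2180151 to 2180932), had 8.59 and 4.08 FPKM in KU50 against 1.63 and 0.612 in Xinxuan048. Its log2 changes were -0.92 and -0.71, the latter the lowest of all members in Xinxuan048. MANES_17G043600, on chromosome 17, had 56.4 and 29.2 FPKM in KU50 against 20.04 and 13.2 in Xinxuan048, and MANES_03G196700, on chromosome 3, had 8.40 and 4.32 FPKM in KU50 against 2.56 and 1.24. For each of these 4 genes the drought value lay on the same side of control in both cultivars.

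The highest drought change in KU50 was that of MANES_07G068500, on chromosome 7 (10805983 to 10811039). It had 7.20 and 15.4 FPKM in KU50 against 0.668 and 1.63 in Xinxuan048, control before drought. Both cultivars had the higher value under drought, with log2 changes of 0.9992 (just under the limit) and 0.66. MANES_13G127700, on chromosome 13, had 4.70 and 9.91 FPKM in KU50 against 1.47 and 2.09 in Xinxuan048, with log2 changes of 0.94 and 0.32. In 13 members the drought change was at least 0.9 in size in a cultivar.

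The genes with the widest gap between the cultivars were kept out by the drought limit alone. MANES_16G012100, on chromosome 16 (1164798 to 1166935), had 178 FPKM in control leaves of KU50 and 59.9 in its drought leaves. The Xinxuan048 values were 0.0475 and 0.112 FPKM. Its log2 ratios of 7.42 and 5.78 exceeded those of every member, and its KU50 log2 drought change was -1.55. MANES_14G147100, on chromosome 14, had a log2 change of -1.06 in KU50 and so lay just beyond the limit, with a drought ratio of 7.22.

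The members lay on all 18 chromosomes, from 3 on chromosome 17 to 16 on chromosome 7. Chromosome 7 had the highest share, 2.18% of its 733 eligible genes, followed by chromosome 11 with 1.58% (15 of 952) and chromosome 10 with 1.24% (10 of 805). The lowest shares were 0.351% on chromosome 9 (4 of 1138) and 0.407% on chromosome 5 (5 of 1230). The 16 genes of chromosome 7 were spread from 3276227 to 24814333. Its genes that are no member had a median mean log2 ratio of 0.11, within the range of 0.08 to 0.15 over the chromosomes. Chromosome 7 kept the highest share with median-ratio scaling and with upper-quartile scaling (2.06% each, 15 of 729). It also had the highest share of Xinxuan048-high genes, 0.819% (6 of 733) beside 0.409% over all eligible genes, so a high share on chromosome 7 was not particular to the KU50-high genes. These shares were not tested against chance.

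**Figure D4:**
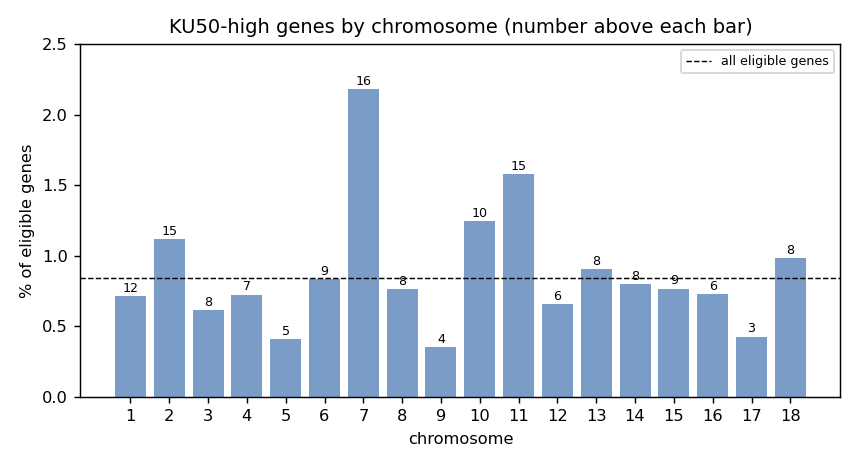
Share of the eligible genes of each chromosome that are KU50-high, in percent, with the number of members above each bar; the dashed line is the share over all eligible genes, 0.844%. Chromosome 7 has the highest share, 2.18%, and chromosome 9 the lowest, 0.351%.

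Most members stood alone among their neighbours. With eligible genes placed in order of their start, 12 of 157 members (7.64%) had another member directly beside them, in 6 pairs, and no run was longer than 2. Of the 18445 eligible genes that are no member, 300 had a member directly beside them, a smaller share than among the members. The difference was not tested against chance. MANES_01G160300 and MANES_01G160400 lay 1498 bases apart on chromosome 1, between 26671301 and 26675911. The first had 2.63 and 1.26 FPKM in KU50 against 0.708 and 0.107 in Xinxuan048, control before drought. The second was far more abundant, with 28.5 and 32.1 FPKM in KU50 against 9.79 and 14.6 in Xinxuan048. Their drought changes differed, with log2 values in KU50 of -0.68 and 0.17.

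MANES_07G071900 and MANES_07G072100 were neighbours only in the order of eligible genes, with 166746 bases between their loci on chromosome 7. The first had 8.21 and 3.90 FPKM in KU50 against 0.788 and 0.684 in Xinxuan048. The second had 18.1 and 12.4 FPKM in KU50 against 3.32 and 2.53 in Xinxuan048. Both had lower values under drought in each cultivar.

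Another 2 pairs were singled out after their values were seen, because their members resembled each other. MANES_07G080800 and MANES_07G080900 lay 2364 bases apart on chromosome 7, between 18083056 and 18087177. Control leaves of KU50 gave 13.8 FPKM for the first and 11.9 for the second, and its drought leaves 18.1 and 12.8. In Xinxuan048 the first was unlisted in both libraries, and the second was at 0.189 FPKM in the control library alone. MANES_11G161900 and MANES_11G162000, on chromosome 11, had loci of almost equal span, 3764 and 3765 bases, with 3477 bases between them. Control leaves of KU50 gave 37.8 FPKM for the first and 25.3 for the second, and its drought leaves 31.7 and 27.7. In Xinxuan048 the values were 10.2 and 8.997 FPKM, then 13.9 and 12.7. Whether the members of a pair are copies that share reads was not tested, since their sequences were not used here, and the split of FPKM within such a pair is uncertain.

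Genes beside a member had ratios shifted toward KU50 more often than other genes, on each of the 4 scales tried. These 300 genes are no members, so ratios past both limits with a small drought change are missing among them, as they are among the genes they are set against. A mean log2 ratio of at least 0.5 was found at 71 of them (23.7%), beside 13.5% of the 18445 eligible genes that are no member. A mean ratio of at most -0.5 was found at 23 (7.67%), beside 5.75%, so shifts toward Xinxuan048 were also more frequent. Their median ratio was 0.17, beside 0.11, and their median abundance was 9.92 FPKM, beside 10.4. Both ratios reached 1 at 5 of the 300 (1.67%), beside 0.558%, which left those 5 out only for their drought change. With median-ratio scaling the share at 0.5 or more was 15.7% (36 of 229), beside 9.57%, and the median was 0.00921. These shares were not tested against chance. The share of genes shifted toward KU50 was highest directly before a member, at 28.5%, and lay between 11.5% and 18.8% at the other places up to 5 genes away. The share at -0.5 or less was 10.6% directly before a member. It ranged from 4.64% directly after a member to 13.5% at 4 places after, so the spread by place was on both sides.

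**Figure D5:**
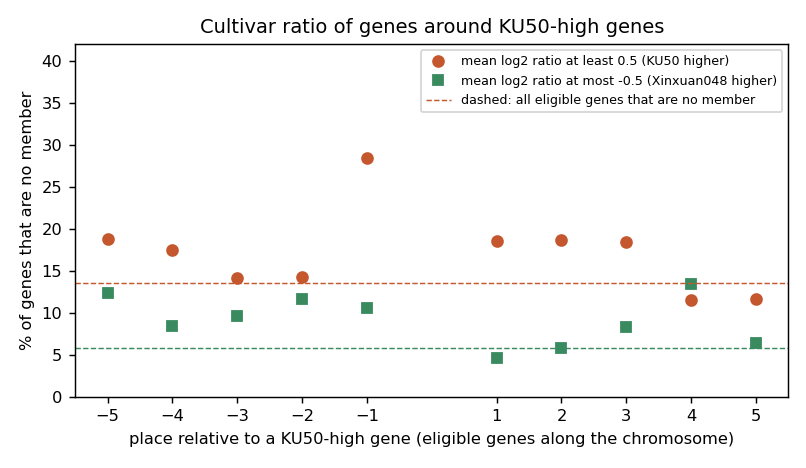
Share of genes that are no member with a mean log2 ratio of at least 0.5 (circles) or at most -0.5 (squares), by their place before (negative) or after a KU50-high gene in order of start; dashed lines are the shares over all eligible genes that are no member, 13.5% and 5.75%. The circle directly before a member stands at 28.5%, while at 4 and 5 places after a member the circles lie below the dashed line. The square directly before a member stands at 10.6%, and the highest square, at 4 places after, at 13.5%.

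The members had shorter loci than eligible genes as a whole. Their median span was 2491 bases, beside 3750 bases, and 34 of 157 (21.7%) spanned less than 1000 bases, beside 6.37%. The 76 Xinxuan048-high genes were also short, with a median of 2042 bases and 14.5% under 1000. The widest member locus was that of MANES_07G086200, which spans 44549 bases of chromosome 7 from 20164781 to 20209329. It had 13.5 and 22.6 FPKM in KU50 against 0.215 and 1.40 in Xinxuan048, control before drought. Its log2 drought changes were 0.71 in KU50 and 0.98 in Xinxuan048, and its log2 cultivar ratio was above 3 in each condition.

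In the files, overlapping genes can carry the same locus position, and then their reads may have been divided between them. Such a shared locus was found for 7 members (4.46%) and for 3.81% of eligible genes. One of the 7 was MANES_01G103400, on chromosome 1, the second widest locus with 12287 bases. It had 6.58 and 5.48 FPKM in KU50 against 0.846 and 1.30 in Xinxuan048. The nearest other listed locus lay a median of 2057 bases from a member and 1706.5 bases from an eligible gene, and distances over 50000 bases were found for 8 members (5.10%) and 2.60% of eligible genes.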

How the data were processed

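Leaf RNA of 2 cultivars under 2 conditions was analysed, with 1 library per group, grouped by the labels. FPKM were used as the authors deposited them. TopHat2 2.0.12, an aligner, and Cufflinks, a quantifier, appear in the submitters' processing notes without settings, and build and annotation are not given in the sources used here. Starts in the files count from 0, judged from spans under 1500 bases (2913 of 5898 are multiples of 3), so 1 was added to print them. No gene is listed at 0, and an absent gene was set to 0. FPKM carry no fragment counts, so depth is unknown and no interval is given for any FPKM.

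The membership rule, the gene's neighbours and all medians were computed with pandas 2.3.3 in Python 3.11.15, and figures used matplotlib 3.10.9. The rule and the search for neighbours were tested on simulated data, with genes planted well clear of the limits. The medians were not part of that test. No test was run, because the rule uses the contrasts of interest and each group has 1 library. Members and lists were chosen with earlier results of these data known. Planned groups by gene description and cell type markers could not be applied, as no tag had a name. Tags named are at most 2 per ordering: largest and smallest ratio, nearest outside the limit, highest KU50 mean, extremes of drought change and of change in ratio, widest locus, first neighbouring pairs, and genes failing only the drought limit; others are marked.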

Additional observations from a re-analysis of the deposited data

Results flagged for a closer look

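Several named genes had drought changes of opposite sign in the cultivars, and none of these differences was tested, since each change rests on 1 pair of libraries. The difference of the log2 drought changes, Xinxuan048 minus KU50, was 0.90 at MANES_10G016600, where the Xinxuan048 change was only 0.0024. It was -1.17 at MANES_18G122800, 1.16 at MANES_12G131300, 1.07 at MANES_08G166600 and 0.54 at MANES_01G103400. The Xinxuan048 sign rests on low values at MANES_18G122800 (0.588 and 0.259 FPKM) and MANES_12G131300 (0 and 0.192 FPKM), control before drought. MANES_01G103400 has a shared locus, where reads may have been divided. Among the genes kept out by the drought limit alone, the difference was 1.54 at MANES_14G147100 and 1.64 at MANES_16G012100, whose Xinxuan048 values were all below 0.5 FPKM.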

How the results depend on the processing

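No paired analysis was possible because each group has 1 library, and for the same reason no replicate could be left out. The 11 alternatives set beforehand gave 88 values for 8 results. The yardstick was 1.5 times (counts) or the exact 95% binomial interval of the reported value. Such an interval treats the chosen genes as independent draws and does not measure uncertainty between libraries or plants. By this yardstick 71 values stayed within, 15 moved beyond and 2 changed sign. The cause was not tested, except that stricter limits leave fewer genes. The count of 157 members became 75 with a mean of at least 5 FPKM and 28 with a cultivar log2 ratio of at least 2. It lay between 118 and 198 otherwise, but with a pseudocount of 0.1 only 109 of the 157 remained and 89 genes were new. The share near silent in Xinxuan048, 26.8%, was 14.6% with a pseudocount of 0.1, 14.7% with a mean of at least 5 FPKM, 16.7% for genes listed in all 4 libraries and 57.1% at a ratio of at least 2. That ratio limit also moved the median ratios to 3.30 in control and 3.07 in drought, the Xinxuan048 drought change to 0 and the neighbours' median to 0.0472. The median drought change in KU50 turned to -0.10 with upper-quartile and -0.13 with median-ratio scaling; in Xinxuan048 it fell to 0.15 and 0.10. The neighbours' median was 0.0621 and 0.00921 under these scalings. The share of members with a neighbouring member was 3.03% with a pseudocount of 0.1. Of the alternatives chosen after the data were seen, the neighbours' share at 0.5 or more moved to 18.1% with upper-quartile and 15.7% with median-ratio scaling, beside 10.6% and 9.57% of other genes, and the share on chromosome 7 stayed between 2.05% and 2.18%.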
